A study of Mus musculus with 4 samples.

Results

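The SR proteins and the heterogeneous nuclear ribonucleoproteins (hnRNPs) were described here through all 31 protein-coding genes whose mouse symbol starts with Srsf (11 genes) or Hnrnp (20 genes), out of 21764 protein-coding genes in the tables. The rule used names only and no measured value, although earlier results of these data were known when it was chosen. The sequenced RNA came from primary mouse cells whose label is T-helper 17 (Th17), a CD4 T cell type that makes interleukin 17. The 4 libraries formed 1 group, replicates 1 to 4, of strain C57BL/6NJ, with a biosample record each and 1 shared donor record. No genotype change, treatment or control group was given in the labels, which list age as unknown and sex as not collected. They link to a differentiation protocol for CD4 T cells, and the count headers carry an hour tag of 0. Since the labels do not say that the libraries came from separate animals, the spread between them may be partly technical.

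SR proteins have RNA recognition motifs and a domain rich in arginine and serine repeats. They bind exonic enhancers and help the spliceosome to find nearby splice sites, and kinases control their activity by phosphorylating the repeats. Most hnRNPs coat nascent transcripts, and many act as silencers of nearby splice sites, so that the balance of both families shapes exon choice. Many SR and hnRNP genes also limit their own output by splicing their RNA into forms that are degraded by nonsense-mediated decay. In T cells, hnRNPLL is known for promoting skipping of the variable exons of the CD45 gene when naive cells become activated or memory cells.

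Depth was 29041979, 35018552, 48808978 and 45490373 counted fragments in replicates 1 to 4. The 8 CD4 T cell markers were all at 100 TPM or more in every library, where TPM is abundance per gene length scaled to a fixed library total. Of the 8 markers of Th17 cells, 3 reached 1 TPM in every library, with summed levels of 15.0 to 26.6 TPM, whereas the 6 naive T cell markers summed to 5529 to 6229 TPM. The interleukin genes Il17a and Il17f were at 4.22 ± 1.53 and 9.83 ± 3.10 TPM (SD, n = 4), and Il22 and Il23r had 8 counts each over all libraries. The abundant markers were thus those of CD4 and naive T cells, and Th17 is used here as the label only. Summed levels ranged from 40.4 to 47.9 TPM for 6 CD8 T and NK cell markers (Cd8b1 held nearly all of it), from 2.51 to 3.73 for 5 B cell markers and from 1.55 to 2.73 for 5 myeloid markers. Of the myeloid markers, Cd14 was at 0 counts and 1 other reached 1 TPM in every library. In bulk RNA, fewer cells of a type and less RNA per cell cannot be told apart.

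Promoter sequences are shown for 3 genes of wide spread between libraries, picked after their values were seen: Hnrnpa2b1 and Srsf3, which were highest in replicate 4, and Hnrnpd, which was lowest there. They are the 250 bases before the RefSeq start site (GRCm38.p6), 5′ to 3′ on the strand of the gene. Hnrnpa2b1 lies at chr6:51469895-51470144 (minus strand), Srsf3 at chr17:29032410-29032659 (plus strand) and Hnrnpd at chr5:99978939-99979188 (minus strand). Capitals mark matches, on either strand, to any of 6 motifs: the CCAAT box (CCAAT), the TATA box (TATAAA), the E box (CACGTG), the ETS motif (CCGGAAG), the heat shock element core (GAANNTTC) and the NRF1 motif.
Hnrnpa2b1: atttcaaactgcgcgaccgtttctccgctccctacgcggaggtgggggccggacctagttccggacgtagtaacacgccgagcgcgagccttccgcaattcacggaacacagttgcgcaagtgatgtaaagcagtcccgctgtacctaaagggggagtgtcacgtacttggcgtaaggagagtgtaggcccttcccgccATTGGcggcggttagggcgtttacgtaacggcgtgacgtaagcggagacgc
Srsf3: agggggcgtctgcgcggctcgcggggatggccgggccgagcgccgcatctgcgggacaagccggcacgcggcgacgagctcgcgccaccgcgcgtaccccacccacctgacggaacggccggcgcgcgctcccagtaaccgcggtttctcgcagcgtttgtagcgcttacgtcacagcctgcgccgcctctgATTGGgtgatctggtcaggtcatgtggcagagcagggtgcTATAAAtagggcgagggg
Hnrnpd: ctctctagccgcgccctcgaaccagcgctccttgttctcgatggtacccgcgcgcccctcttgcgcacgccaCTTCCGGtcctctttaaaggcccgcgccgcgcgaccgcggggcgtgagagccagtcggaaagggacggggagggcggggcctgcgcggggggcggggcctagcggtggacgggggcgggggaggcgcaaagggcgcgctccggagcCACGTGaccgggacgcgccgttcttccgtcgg

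In these windows, a CCAAT box on the opposite strand was found in Hnrnpa2b1 and Srsf3, a TATA box in Srsf3, and an ETS motif and an E box in Hnrnpd. RefSeq start sites were matched for 29 members, all but Hnrnpll and Hnrnpul2, and motifs were counted in 1 window a gene, from 250 bases before to 50 after the start. A CCAAT box was present in 16 of the 29 windows, against 37.9% of the windows of all 27025 genes and 37.2% of those of 1299 protein-coding genes at 100 TPM or more in every library. The ETS motif was in 6 of 29 (9.12% and 21.3%), the TATA box in 4 (14.2% and 8.31%), the E box in 4 (7.24% and 10.9%), the heat shock element core in 3 (7.95% and 5.31%) and the NRF1 motif in 0 (0.977% and 2.31%). The heat shock element cores were in Hnrnpa2b1, after the start site, and in Hnrnpl and Srsf9. Median GC content was 68.3% in the member windows, 52.7% in all and 61.7% in the abundant genes, with 31, 7 and 23 CpG dinucleotides. These shares are descriptions and were not tested.

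Every SR and hnRNP gene was expressed, and most were abundant. All 31 reached 1 TPM in every library, a level reached by 45.6% of protein-coding genes, and 22 of 31 reached 100 TPM in every library, which 7.43% of protein-coding genes did. The median member was at 236 TPM. The SR genes summed to 2255 ± 107 TPM (SD, n = 4) and the hnRNP genes to 4849 ± 76.3 TPM, and together they took 0.765% ± 0.0202 of protein-coding TPM. The sum of the SR genes was 2215, 2370, 2127 and 2309 TPM in replicates 1 to 4, and that of the hnRNP genes was 4849, 4935, 4750 and 4863 TPM. Replicate 2 was highest and replicate 3 lowest for both sums.

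**Figure D1:**
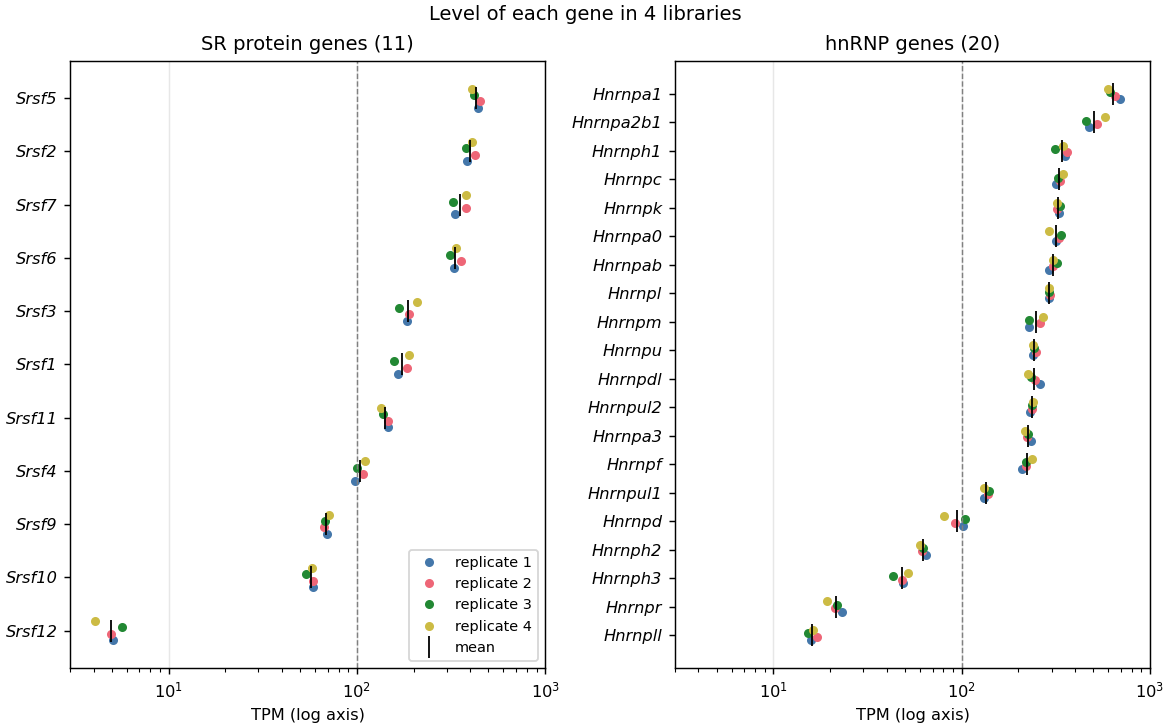
Level of the 11 SR protein genes (left) and 20 hnRNP genes (right) in TPM on a log axis, with a point for each of the 4 libraries and a bar at their mean; the dashed line is at 100 TPM. By union exon length Hnrnpa1 was first at 640 TPM and Srsf12 last at 4.93 TPM, and the libraries of most genes lie close together.

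Among the classical SR proteins, Srsf5 was highest, at 438, 450, 419 and 409 TPM in replicates 1 to 4 (429 ± 18.7 TPM, SD, n = 4). Srsf2, which encodes the SR protein also called SC35, a marker of nuclear speckles, was at 387, 425, 382 and 409 TPM. Srsf7, one of the small SR proteins that also link RNA to export, was at 332, 380, 323 and 381 TPM. Their order was not secure between neighbours, since Srsf5 and Srsf2 overlapped in range, while Srsf2 lay above Srsf7 in every library. Srsf6 followed at 328, 356, 313 and 336 TPM. This order is by union exon length, and the places of Srsf6 and Srsf7 in it depended on the length used, as given below. Srsf3, the smallest SR protein, was at 185, 190, 168 and 208 TPM, and Srsf1, the founding member also known as ASF/SF2, at 166, 185, 157 and 188 TPM. Both were highest in replicate 4 and lowest in replicate 3.

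By union exon length, the remaining SR genes were lower. Srsf11, a larger relative with an arginine and serine rich domain, was at 134 to 147 TPM and Srsf4 at 98.3 to 110 TPM. Srsf9 was at 67.3 to 71.5 TPM and Srsf10, which is known as a splicing repressor when dephosphorylated, at 53.8 to 58.7 TPM. Srsf12, a relative of Srsf10, was at 5.07, 4.93, 5.68 and 4.05 TPM, on 133, 154, 254 and 165 counts. It was the sole member below 15 TPM, yet it still lay at percentile 59.1 of protein-coding genes.

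The hnRNP A and B genes encode abundant silencers with paired RNA recognition motifs and a glycine-rich tail. Hnrnpa1 (ENSMUSG00000046434, GRCm38 chromosome 15, 103240432 to 103244955) was at 691, 654, 614 and 600.5 TPM in replicates 1 to 4, at percentile 99.3 of protein-coding genes. Hnrnpa2b1 was at 473, 525, 455 and 575 TPM. Replicate 4 was lowest for Hnrnpa1 and highest for Hnrnpa2b1, and the ranges of these genes did not overlap. Hnrnpa0, a single-exon relative, was at 291 to 338 TPM, Hnrnpab at 293 to 320 TPM and Hnrnpa3 at 217 to 234 TPM.

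In the AU-rich element binding branch, Hnrnpdl was at 261, 245, 233 and 226 TPM, and Hnrnpd, also called AUF1 and known for controlling mRNA decay, at 101, 92.1, 104 and 80.6 TPM. Hnrnpd and Hnrnpdl are neighbours on chromosome 5, 54638 bases apart, and both were lowest in replicate 4. Hnrnpc, which binds uridine tracts and keeps cryptic exons out of mRNA, was at 317 to 347 TPM, and Hnrnpk, a KH-domain protein that binds cytosine-rich RNA, at 320 to 331 TPM.

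The hnRNP H and F genes encode proteins that bind guanine tracts. Hnrnph1 was at 352, 361, 312 and 346 TPM and Hnrnpf at 209, 220, 219 and 237 TPM. Hnrnph2, on the X chromosome, was at 60.0 to 64.7 TPM and Hnrnph3 at 43.3 to 51.6 TPM, both below Hnrnph1 in every library. Hnrnpm was at 228, 261, 229 and 271 TPM. Of its union exon length 24.9% overlapped exons of March2 on the same strand, and fragments there that hit both genes were not counted, so that its level may be understated.

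Hnrnpl, a regulator of CD45 splicing that binds CA-rich RNA, was at 291, 295, 290 and 290 TPM, the narrowest relative range of all members. Its paralogue Hnrnpll was at 15.9, 17.1, 15.3 and 16.2 TPM, and no library came near the level of Hnrnpl. Hnrnpu, a chromatin-associated scaffold protein, was at 238 to 249 TPM, and its relatives Hnrnpul2 and Hnrnpul1 at 231 to 239 and 132 to 140 TPM. Hnrnpr was at 19.4 to 23.2 TPM. In the order of all 31 means, 16 of the 30 steps between neighbours had overlapping ranges and 14 had separate ranges.

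The TPM values rest on the union of all annotated exons, which for these genes includes retained introns and long alternative ends. For 7 of 31 members the union length was over 2 times the longest coding transcript, which is 1728 bases against 6584 for Hnrnpa2b1 and 3116 against 11677 for Hnrnpll. With the longest coding transcript as the length, which was tried only once the data were known, 7 members rose by over 1.5 times, among them Hnrnpa2b1 to 1409 ± 149 TPM (SD, n = 4), Srsf5 to 796 ± 34.8 and Hnrnpll to 44.1 ± 1.99. Hnrnpa1 was then at 467 ± 30.0 TPM. Its length was 1918 bases either way, so that its fall came from rescaling all genes to the fixed library total. Hnrnpa1 ranked 1 of 31 by union length, 5 by the longest coding transcript and 9 by CPM, whereas Hnrnpa2b1 ranked 2, 1 and 1, and Srsf12 was last in each. In the same order, Srsf7 ranked 5, 14 and 21 and Srsf6 ranked 7, 8 and 7, so that Srsf7 lay above Srsf6 by union length only. Srsf11 rose to a mean of 280 ± 12.1 TPM by the longest coding transcript, above Srsf3 at 267, Srsf7 at 245 and Srsf1 at 135. Its rank was 21 of 31 by union length, 10 by the longest coding transcript and 11 by CPM. By the longest coding transcript, 23 members reached 100 TPM in every library. Hnrnpr was at 16.1 TPM by its longest coding model. That model of 21452 bases is nearly as long as its union of 22199, so that the lengths give no separate check. By CPM, Hnrnpr was at 136 and ranked 24 of 31, against 29 by union length.

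Related genes were then compared within each library as log2 ratios of TPM with a pseudocount of 0.1, for 14 pairs of paralogues and the 2 summed families. Hnrnpl exceeded Hnrnpll by 4.17 ± 0.06 (SD, n = 4), which is 17.2-fold to 18.8-fold over the libraries. Srsf10 exceeded Srsf12 by 3.52 ± 0.24, Hnrnph1 exceeded Hnrnph2 by 2.46 ± 0.10 and Srsf6 exceeded Srsf4 by 1.68 ± 0.06. These gaps were many times the spread between libraries. Srsf1 stood above Srsf9 by 1.33 ± 0.12, Hnrnpa2b1 above Hnrnpa3 by 1.17 ± 0.19, Hnrnph1 above Hnrnpf by 0.63 ± 0.12 and Srsf5 above Srsf6 by 0.36 ± 0.07. Hnrnpd lay below Hnrnpab, with a ratio of -1.70 ± 0.17, and below Hnrnpdl, with -1.36 ± 0.14. Hnrnpr lay below Syncrip, its close relative also called hnRNP Q, with a ratio of -1.36 ± 0.13. The SR sum lay below the hnRNP sum, with a ratio of -1.11 ± 0.05.

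All 15 ratios had 1 direction in all 4 libraries. For each, the exact two-sided sign-flip permutation test gave p = 0.12 (also 0.12 after adjustment over the 15), the smallest p that 4 libraries allow, so that no ratio could pass 0.05. For 3 ratios the direction depended on the length used. Hnrnpa1 over Hnrnpa2b1 was 0.34 ± 0.21 by union length, -1.59 by the longest coding transcript and -1.44 without length correction. Srsf3 over Srsf7 was -0.92 ± 0.07, 0.12 and 0.25 in the same order, and Hnrnpul1 over Hnrnpul2 was -0.80 ± 0.04, 0.23 and -0.21. The other 12 kept their direction, but the length also set the size of most of them.

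By the longest coding transcript, Hnrnpl over Hnrnpll was 3.42 and without length correction 3.20, so that the fold of 17.2 to 18.8 holds for union length only. Srsf10 over Srsf12 was 4.31 and 4.67 in the same order, and Hnrnph1 over Hnrnpf was 1.55 and 1.57. Hnrnpd over Hnrnpdl was -2.05 and -0.75. The longest coding transcript raised Hnrnpa2b1 over Hnrnpa3 to 3.03, Hnrnph1 over Hnrnph2 to 3.60 and Srsf5 over Srsf6 to 1.26. Without length correction, Srsf1 over Srsf9 was 3.11, Srsf5 over Srsf6 only 0.09, Hnrnpd over Hnrnpab -0.30 and Hnrnpr over Syncrip -0.52. Taken as folds and not as log2 values, the remaining ratios, Srsf6 over Srsf4 and the family sums included, moved by less than 1.5 times.

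**Figure D2:**
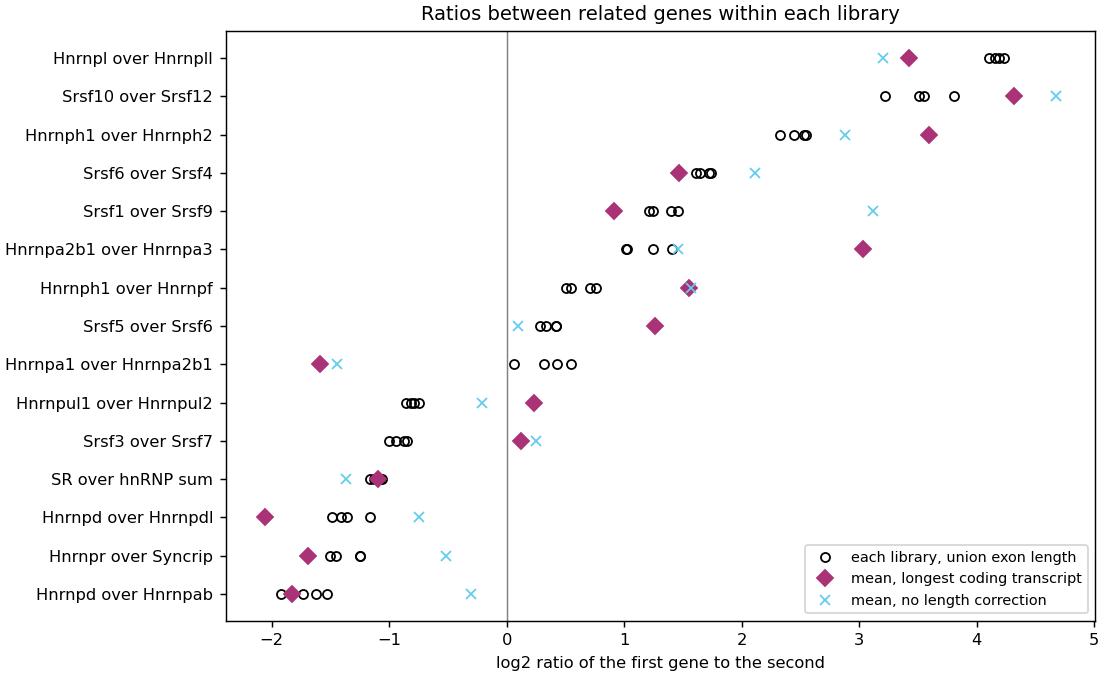
Log2 ratio of the first gene to the second for 14 pairs and the 2 family sums; open circles are the 4 libraries by union exon length, diamonds the mean by the longest coding transcript and crosses the mean without length correction. The circles of each ratio lie on 1 side of 0, and for Hnrnpa1 over Hnrnpa2b1, Srsf3 over Srsf7 and Hnrnpul1 over Hnrnpul2 a diamond or cross lies on the other side.

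The levels of these genes differed little between libraries. The coefficient of variation (SD over mean TPM) had a median of 5.35% over the 31 members, against 7.94% over all 12464 genes tested and 4.49% over the 1618 protein-coding genes at 100 TPM or more in every library. For 26 of 31 members the highest library was under 1.2 times the lowest. Hnrnpl varied by 0.852%, close to the 0.713% that counting error alone would give, and Hnrnpul2 by 1.38%. The widest was Srsf12 at 13.6%, where counting error alone would give 7.53%.

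No member passed the test for spread between libraries beyond the trend for its abundance. In an F test on edgeR's quasi-likelihood dispersions, 0 of 31 members passed (adjusted p below 0.05), where 0.193% of all 12464 genes did. At an unadjusted p below 0.05 there was 1 member, Hnrnpd, against 5.34% of all genes, and DESeq2 marked 0 members as dispersion outliers against 0.866% of all genes. Hnrnpd was highest in replicate 3, at 104 TPM, and lowest in replicate 4, at 80.6 TPM (edgeR adjusted p = 0.885). Next in spread were Hnrnpa2b1, Hnrnpm, Srsf3, Srsf7 and Srsf1 (edgeR adjusted p = 0.942, 0.961, 0.961, 0.962 and 0.966), each highest in replicate 4. In simulated data this test recovered most genes that were strongly changed in 1 library but none that were moderately changed. The members' ranges, at most 1.4 times from lowest to highest library, were smaller than either, so that the absence of calls does not show equal levels.

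The shares of members highest or lowest in replicate 4 were near those of other genes and depended on the scaling. By CPM, counts scaled to the library total, 10 of 31 members were highest in replicate 4 (32.3%), against 21.3% of all genes tested and 29.0% of the 1618 abundant protein-coding genes. Replicate 4 was lowest for 13 members (41.9%), against 39.0% and 31.2%. The families differed: it was highest for 5 and lowest for 3 of 11 SR genes, and highest for 5 and lowest for 10 of 20 hnRNP genes. Replicate 2 was lowest for 2 of 31 members (6.45%), against 17.3% and 18.7%. On the scale of log2(CPM + 1) minus the mean of the 4 libraries, replicate 4 was at 0.18 for Hnrnpa2b1, 0.14 for Srsf3, 0.13 for Hnrnpm and 0.11 for Srsf1. At the other end it was at -0.23 for Hnrnpd and Srsf12, -0.15 for Hnrnpr and -0.14 for Hnrnpa0. With TMM-scaled CPM, 12 members were highest in replicate 4 (38.7%, against 29.3% of all genes tested and 43.9% of the abundant ones) and 9 were lowest there (29.0%, against 30.6% and 19.5%). On that scale more members, 11, were lowest in replicate 1 (35.5%, against 25.5% of all genes tested and 42.6% of the abundant ones).

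**Figure D3:**
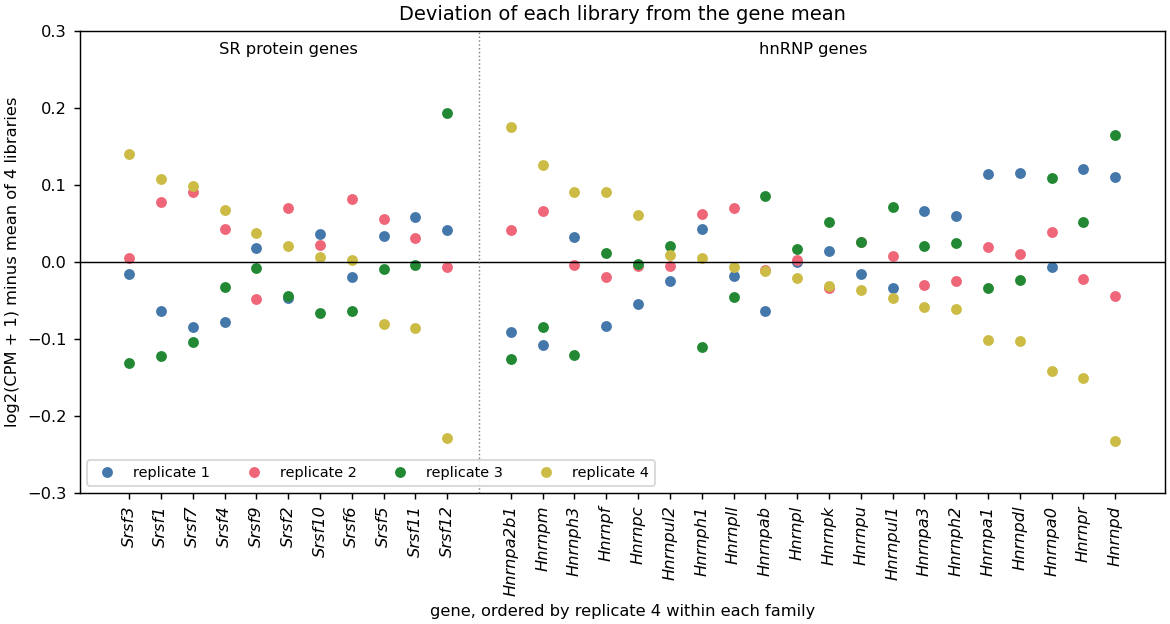
Deviation of each library from the gene mean in log2(CPM + 1), for the SR protein genes (left) and hnRNP genes (right), ordered by replicate 4 within each family. Replicate 4 ranges from -0.23 for Hnrnpd to 0.18 for Hnrnpa2b1.

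Of 16 heat shock and chaperone genes listed, 14 were highest in replicate 4, all but Hspa1a and Hspb1. All 16 summed to 3081, 4061, 3675 and 6943 TPM in replicates 1 to 4, and 9 of the 15 tested passed the edgeR spread test (adjusted p below 0.05). These 9 were Hsp90ab1, Hspa8, Stip1, Hsp90aa1, Dnajb1, Hspa1b, Hsph1, Dnaja1 and Chordc1, each highest in replicate 4. The cold-inducible RNA-binding gene Cirbp was at 204, 137, 185 and 95.01 TPM and Rbm3 at 181, 154, 178 and 135 TPM, lowest in replicate 4 (edgeR adjusted p = 0.0506 and 0.654). Hnrnpd, like Cirbp and Rbm3, was higher in replicates 1 and 3 than in replicate 2 and lowest in replicate 4. Its replicate 3 was above replicate 1, the reverse of Cirbp and Rbm3. Hnrnpa2b1, like the heat shock sum, was highest in replicate 4 and next in replicate 2. Replicate 3 was above replicate 1 for the heat shock sum but below it for Hnrnpa2b1. Both members were picked after their values were seen, and members with either order were not counted. The part of the heat shock and cold-inducible difference between libraries in the members' values was not tested.

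Many members had annotated transcript models of decayed or unspliced forms, which is given as a description with no test. In GENCODE M21, 9 of 11 SR genes and 10 of 20 hnRNP genes had at least 1 model marked as a substrate of nonsense-mediated decay, which is 61.3% of members. The share was 20.9% of all protein-coding genes and 28.4% of those at 100 TPM or more in every library. The 2 SR genes without such a model were Srsf10 and Srsf12. Retained-intron models were listed for 22 of 31 members (71.0%), against 41.8% and 65.2%, so that the members were near the abundant genes. The members also had more transcript models of any kind, with a median of 7, against 4 and 6. The gene counts do not tell coding from decayed forms.

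**Figure D4:**
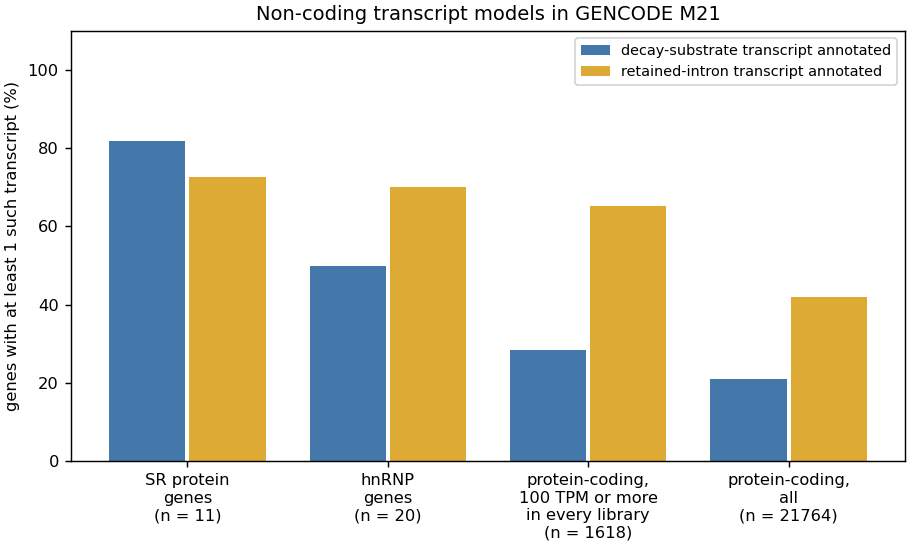
Percent of genes with at least 1 transcript model marked as a substrate of nonsense-mediated decay (blue) or as a retained intron (yellow) in GENCODE M21, for SR genes, hnRNP genes and 2 backgrounds. The blue bars stand at 81.8% for the SR genes and at 28.4% and 20.9% for the backgrounds, with 10 of 20 hnRNP genes between them.

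Near-identical copies limit some of these counts. By alignment, 76 annotated pseudogenes matched a member over at least 300 bases at 90% identity or more, 35 of them closest to Hnrnpa3, 16 to Hnrnpa1 and 7 to Hnrnpf. Fragments that align equally well to a copy were left out of the counts, so that Hnrnpa3 and Hnrnpa1 in particular may be undercounted by an unknown amount. The pseudogenes closest to Hnrnpa3 held 316 counts and those closest to Hnrnpa1 held 217 over all libraries, few beside the members' own counts. Of the 2 copies closest to Hnrnpk, 1 was in the tables and held 1590 counts, and the copy of Srsf5 held 501.

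The enzymes and partners of these families were also expressed. Of 9 SR protein kinase genes 8 reached 1 TPM in every library, with a median of 93.0 TPM. Clk1, a nuclear kinase of SR proteins, was at 184 ± 6.73 TPM (SD, n = 4), Prpf4b at 181 ± 7.04, Srpk1, the main cytoplasmic SR kinase, at 177 ± 4.97 and Clk4 at 96.1 ± 3.50. The muscle-associated Srpk3 had 1 count over all libraries. All 18 SR-related coactivator and transport genes reached 1 TPM, led by the speckle scaffold gene Srrm2 at 599 ± 30.5 TPM. Next were the mRNA export receptor gene Nxf1 at 270 ± 7.47, the speckle scaffold gene Son at 243 ± 12.4 and Acin1 at 233 ± 4.67 TPM.

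Genes for proteins of the hnRNP class that carry other names were expressed too. All 17 reached 1 TPM in every library, with a median of 148 TPM against 242 TPM for the 20 Hnrnp genes, led by the poly(C)-binding protein genes Pcbp2 at 516 ± 12.3 and Pcbp1 at 468 ± 25.0 TPM. Ptbp1, the polypyrimidine tract binding repressor also called hnRNP I, was at 324 ± 5.86 and Ewsr1 at 287 ± 15.0 TPM. All 18 genes for U1 and U2 recognition factors reached it too, with Sf3b1 at 409 ± 17.5, Sf3b2 at 409 ± 12.05, Rbm39 at 311 ± 12.05 and Snrnp70 at 295 ± 24.8 TPM.

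Other splicing regulators reached 1 TPM in 18 of 20 cases, led by the RNA helicase genes Ddx5 at 1479 ± 43.5 and Ddx17 at 464 ± 31.1 TPM. The paraspeckle protein gene Sfpq was at 264, 330, 253 and 371 TPM, in the same order of libraries as Hnrnpa2b1 (edgeR adjusted p = 0.37), and its partner Nono was at 219 ± 6.03 TPM. All 16 nonsense-mediated decay genes reached 1 TPM, led by Smg1 at 203 ± 17.3, Upf1 at 179 ± 9.92, Eif4a3 at 171 ± 6.06 and Magoh at 147 ± 5.63 TPM. Of the 95 genes for kinases, partners, splicing and decay factors that were tested, 0 passed the edgeR spread test (background 0.193%). At an unadjusted p below 0.05 in that test there were 7 of the 95, against 5.34% of all genes tested.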

How the data were processed

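Gene expression was measured in 4 libraries of 1 group. The authors deposited raw counts of fragments for each gene. Per the file headers, featureCounts 1.4.6-p4 counted read pairs with both ends mapped over GENCODE M13 exons, on the reverse strand, without options that admit multi-mapping reads or reads shared by genes. For the aligner, a version was not given in the sources used here. Union exon length, from the same M13 exons, was the other deposited value used, while transcript lengths came from GENCODE M21. For Srsf7 the union of 2279 bases was shorter than the longest coding transcript of 2403. GENCODE M21 gave symbols for 50376 of 50600 gene IDs. The labels call the assay total RNA-seq, while the linked protocol is titled as poly(A)+.

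The members, gene lists and pairs were chosen with earlier results of these data known. The named genes were every member and, for 8 lists, the 4 genes of highest mean TPM and those past the spread test. TPM was computed from counts and union exon length, and log2(CPM + 1) from counts. Spread was tested on all 12464 genes past filterByExpr with edgeR 4.0.16 in R 4.3.3 (intercept only, TMM, robust fit, one-sided F test of quasi-dispersion against the prior trend, Benjamini-Hochberg), with DESeq2 1.42.0 as an alternative. The F test was built on the edgeR fit and used the largest prior degrees of freedom for every gene. On simulated data with 1 changed library, it recovered most strong changes and no moderate ones. Pseudogene copies were found with blastn 2.17.0 and exon overlaps with bedtools 2.31.1, and Python 3.11.15 was used for other steps. Counting error alone is the inverse square root of a gene's mean count. Alternatives covered length, denominator, normalization, filters, pseudocount and leaving out each library. No columns were left unmapped, and text listings of files were not used.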

Additional observations from a re-analysis of the deposited data

Results flagged for a closer look

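Of 90 values checked for a library far from the other 3, 1 stood apart. Srsf10 was at 53.8 TPM in replicate 3 against 58.0 to 58.7 TPM in the others, so that the gap took 0.857 of the whole range. Chance flags about 1 in 20 such groups, and Srsf10 did not pass the edgeR spread test (adjusted p = 0.995).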

How the results depend on the processing

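The count of members past the spread test was 0 in each alternative, although the count over all genes moved from 24 to 349 without a filter, 10 with a mean CPM of 5 or more, 5 without the robust prior and 108 as DESeq2 dispersion outliers, and ranged from 7 to 86 when 1 library was left out. Without replicate 2, 3 or 4 it was 13, 7 and 86. Of the 24 genes, 24, 7, 5 and 24 were among those of the first 4 settings. The cause was not tested. All 31 members stayed at 1 TPM or more in each setting, and 22 to 26 reached 100. With the longest coding transcript, Srsf3 over Srsf7 turned to 0.12, Hnrnpa1 over Hnrnpa2b1 to -1.59 and Hnrnpul1 over Hnrnpul2 to 0.23. Without length correction, the first and second were 0.25 and -1.44. A pseudocount of 1 and leaving out a library changed no direction. No paired analysis was possible because the libraries form 1 group. Depth is thinnest for Srsf12, at 133 counts in replicate 1.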
